A study of Mus musculus with 13 samples.

Results

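Mouse livers labelled as knockout for the retinoblastoma gene Rb1 were compared with livers labelled as heterozygous for it, both taken 24 h after the liver carcinogen diethylnitrosamine (DEN). The comparison was made up of 2 arrays labelled knockout and 2 labelled heterozygous, chosen by the submitters' descriptions alone, out of 13 arrays in the series. Knockout-labelled mice had floxed Rb1, with loxP sites on both sides of exon 19, and carried Cre. Heterozygous mice had a functional allele, a floxed allele and Cre, although another field of their labels gives the genotype as LOH. Mice of both groups had received DEN at 20 mg/kg by intraperitoneal injection at 14 days of age. The Cre transgene uses the promoter of albumin, a hepatocyte gene, and recombination in the different cell types of these livers was not measured here. The other 9 arrays were 2 of untreated (saline) floxed mice without Cre, 2 of such mice given DEN, called wild type here, and 5 of N750F mutant mice given DEN. They entered the model because it estimates, for each gene, 1 spread and 1 shift between array batches over all arrays.

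The retinoblastoma protein binds E2F transcription factors and holds back the genes that E2F switches on for DNA replication, until cyclin-dependent kinases release it. Genes of mitosis are controlled later in the cycle, by complexes that act through a promoter element called the CHR. DEN is turned into an alkylating agent by cytochromes P450 of the hepatocyte, and the damage it leaves in DNA activates p53. The liver of a young mouse is still growing, and hepatocytes that divide and hepatocytes that carry out drug metabolism can be told apart by the genes they transcribe. The comparison asks which genes differed between the knockout-labelled and the heterozygous livers once DEN had acted.

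Both knockout arrays and heterozygous array 3 were run in batch 1 and heterozygous array 4 in batch 2, so array batch was a term of the model. Levels are log2 of the quantile-normalized intensity plus 16, and differences are knockout minus heterozygous on that scale, with the standard error (SE) of the limma model. The batch term rests also on N750F and wild type arrays, so a difference is not the plain difference of the printed levels. For Dpysl2 it was 2.06 in the model and 1.27 between the plain group means. No label says that the mice were from separate litters. The p-values rest on a spread within groups pooled over all 13 arrays, not on that of the 4 compared arrays alone. They describe the arrays of this series only. All 4 mice read as male from the Y-linked genes (mean level 9.06 to 9.45), while the Xist level was 5.64 and 5.66 in the knockout arrays, 6.16 in heterozygous array 3 and 8.05 in heterozygous array 4. Across genes the knockout arrays correlated with each other at 0.910 and the heterozygous arrays at 0.896, and knockout array 1 with heterozygous array 3 at 0.931. Arrays of one label were thus no more alike than some arrays of different labels. Knockout array 2 also carried skeletal muscle transcripts: the summed intensity of 25 muscle markers was 26258 there, against 1610 in knockout array 1, 2027 and 2232 in the heterozygous arrays and 1600 to 2008 in the other 9. Titin (Ttn) was at 13.59 in knockout array 2 and 5.35 in knockout array 1, and 15 of the 25 markers were highest in array 2. The part of that muscle RNA in the results was not tested.

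Rb1 itself (probe set 10421526) was at 7.92 and 6.57 in knockout arrays 1 and 2 and at 7.92 and 7.62 in heterozygous arrays 3 and 4. The first knockout array was as high as the higher heterozygous array, and only the second lay below both. The difference was -0.61 ± 0.37 (SE), with an adjusted p of 0.646 in limma. Without knockout array 2 it became 0.070, and without knockout array 1 it was -1.28 (adjusted p = 0.0969). Where this probe set lies relative to the floxed exon was not known here, so it does not check the genotype labels, and hepatocytes are not the only cells of the tissue that transcribe Rb1.

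Of 14953 genes tested, 45 differed at an adjusted p under 0.05, which is 0.301% of them. In the knockout-labelled livers 33 were higher (0.221%) and 12 were lower (0.0803%). Genes of mitosis led the higher side and hepatocyte enzymes that metabolise drugs and steroids led the lower side. Differences ran from 1.26 to 3.59 on the higher side and from -3.84 to -1.32 on the lower side, while the median over all genes was -0.001. For all 45 both knockout arrays lay beyond both heterozygous arrays, as they did for 4913 genes, or 32.9% of all tested. At an unadjusted p under 0.05 there were 827 genes higher and 612 lower.

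The number of calls depended on single arrays. It was 135 without knockout array 2 (116 higher and 19 lower, with 34 of the 45) and 55 without knockout array 1 (29 and 26, with 16 of the 45). It fell to 12 without heterozygous array 3 and to 2 without heterozygous array 4. Leaving out an array of another group gave 14 without N750F array 2 or 5, 15 without array 3, 24 without array 4, 26 without array 1, 20 without either untreated array and 21 without either wild type array. Within batch 1 alone, with a single heterozygous array, 1 gene passed and it was not among the 45. All 45 kept their direction in each of these fits. They were called on these same arrays, with no overlap between the groups, so a kept direction was close to given. The 11 genes that did not pass without knockout array 2 were Ube2s, Aspn, Sox12, Gpc3, Mt2, Med4, Hmgn2, Sgce, Ppp1r10, Cyp2d13 and Nr1d2, with adjusted p of 0.0504 to 0.141. The 16 that passed without knockout array 1 were Ube2c, Nusap1, Sgo2a, Kif20b, Ube2s, Ccnb2, Chaf1a, Ccdc18, Dpysl2, Tceal9, Sult1e1, Orm1, Cyp2c38, Ugt2b1, Cyp2d13 and Nr1d2.

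**Figure D1:**
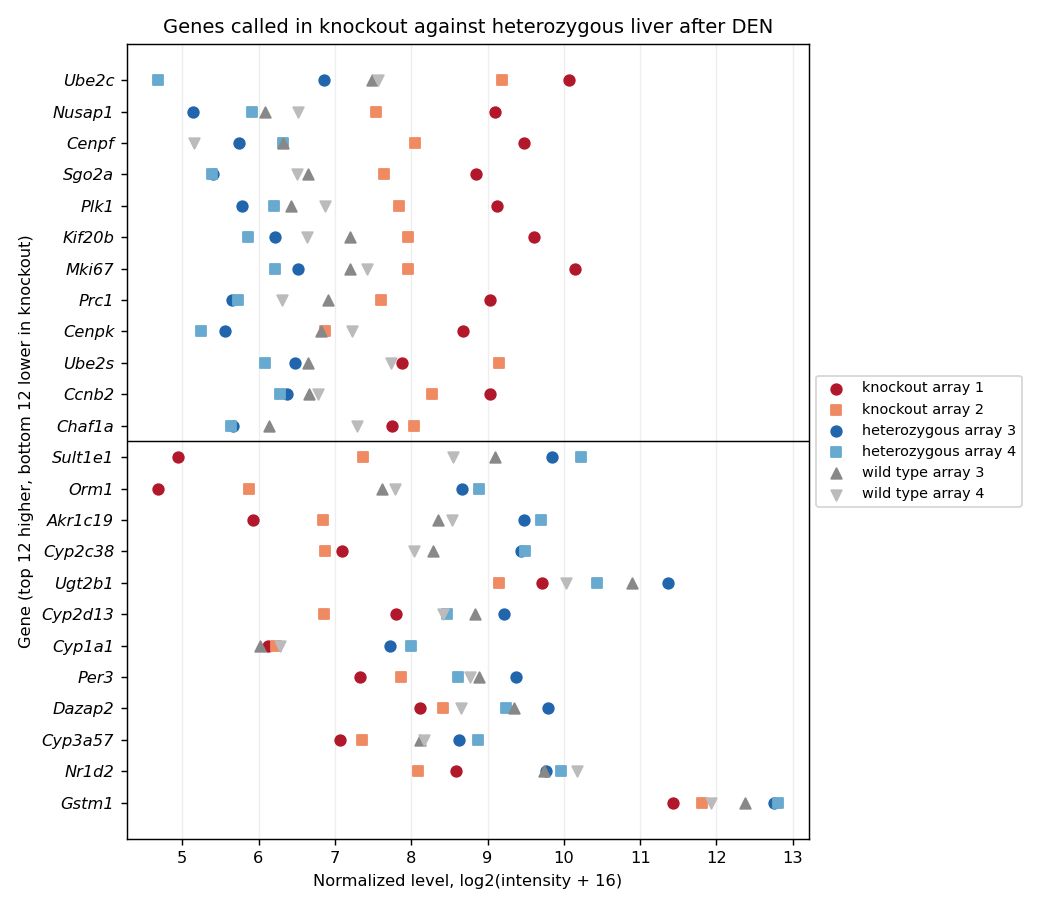
Normalized level, as log2 of intensity plus 16, of the 12 called genes with the largest difference in each direction, with 1 point for each knockout (red and orange), heterozygous (blue) and wild type DEN (grey) array. For every gene shown both knockout points lie beyond both heterozygous points, and for most of the mitotic genes knockout array 1 is farther out than array 2, as for Mki67 at 10.14 and 7.95.

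Mitotic genes made up the largest group. Of 45 tested G2/M genes, which act from the end of DNA replication to cell division, 11 were higher and none lower. The other 34 were short of the threshold, and the median difference was 1.71. At an unadjusted p under 0.05, 41 were higher and 1 was lower. Positive differences were found for 44 of the 45, and in 39 both knockout arrays were above both heterozygous arrays, against 18.8% of all genes. Ube2c, the ubiquitin-conjugating enzyme of the anaphase-promoting complex, had the largest difference of all genes that were higher. Its level was 10.06 and 9.18 in the knockout arrays and 6.86 and 4.69 in the heterozygous arrays. The groups did not overlap, and the heterozygous arrays differed between themselves by more than the knockout arrays did. The difference was 3.59 ± 0.47 (SE, limma adjusted p = 0.00723), or 4.17 with an offset of 1 and 2.96 with an offset of 50 before log2. It was 4.90 without heterozygous array 3, 4.03 without knockout array 2 and 3.15 without knockout array 1, so its size depended on single arrays and on the offset. Ube2c passed in 26 of 29 settings of the processing, but not in batch 1 alone (2.77, adjusted p = 0.0939).

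Ccnb2, cyclin B2, was at 9.04 and 8.28 in the knockout arrays and 6.38 and 6.28 in the heterozygous arrays. Within each group the arrays lay closer together than for most mitotic genes, and the difference was 2.42 ± 0.31 (adjusted p = 0.00689). Nusap1, which bundles microtubules at the spindle, was at 9.09 and 7.54 against 5.14 and 5.91, with a difference of 3.07 ± 0.43 (adjusted p = 0.0113). Plk1, the mitotic kinase that drives centrosome maturation and spindle assembly, was at 9.12 and 7.83 against 5.79 and 6.20 (2.71 ± 0.41, adjusted p = 0.0184). For both genes knockout array 1 stood well above array 2, and array 2 above both heterozygous arrays. Mki67, which encodes the proliferation antigen Ki-67, was at 10.14 and 7.95 against 6.52 and 6.22 (2.68 ± 0.51, adjusted p = 0.047). Mki67 passed in 8 of 29 settings, and its difference was 1.59 without knockout array 1 (adjusted p = 0.0513) and 3.78 without array 2. Without arrays 1 and 2 in turn, Nusap1 had 2.29 and 3.84, and Plk1 had 2.07 (adjusted p = 0.0501) and 3.35. The remaining called members were Cenpf (2.81), a kinetochore protein, Kif20b (2.69) and Prc1 (2.55), which act in cytokinesis, Smc2 (2.23), a condensin subunit, Ndc80 (2.21), which couples kinetochores to microtubules, and Aurkb (1.71), the kinase of the chromosomal passenger complex.

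Among the members that did not pass, Birc5 (survivin) had a difference of 2.81, Kif11 (the spindle motor Eg5) of 2.75 and Anln (anillin) of 2.75. Espl1, which encodes separase, was the exception in direction, at -0.83 with both knockout arrays below both heterozygous arrays. A further 6 members, such as Racgap1 and Kif2c, were too dim for the filter. The mean level over the 45 tested members was 8.59 in knockout array 1 and 6.99 in array 2, against 6.06 and 5.92 in the heterozygous arrays. Members called were 36 without knockout array 2, 4 without knockout array 1, 2 without heterozygous array 3, 1 without heterozygous array 4, and 5 or 6 without any other single array. The list median was 0.95 without knockout array 1 and 2.80 without array 2. Within batch 1 it was 1.69, with no member called.

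Mitotic genes outside that list were also among the 33. Sgo2a, shugoshin, which protects cohesion at centromeres, was at 8.86 and 7.64 in the knockout arrays and at 5.40 and 5.39 in the heterozygous arrays. The heterozygous arrays were almost identical, at a level near that of the dimmest genes. The difference was 2.79 ± 0.35 (adjusted p = 0.00689), with 2.18 without knockout array 1 and 3.40 without array 2. It was 3.34 with an offset of 1 and 2.11 with an offset of 50. Cenpk (2.52) and Cenps (1.89) encode proteins of the centromere, and Cdkn3 (2.38) a phosphatase of cyclin-dependent kinases. Cks1b (1.35) encodes a small subunit of those kinases. Ube2s, which extends ubiquitin chains for the anaphase-promoting complex, was one of the few where array 2 was the higher knockout array, at 9.15 against 7.88, with 6.48 and 6.09 in the heterozygous arrays (2.47 ± 0.43, adjusted p = 0.0401). Without knockout array 2 it had 1.83 (adjusted p = 0.086) and without array 1 3.11. Ube2s has 2 probe sets, and Hmgb2 (1.73) and Hmgn2 (1.57), chromatin proteins that are abundant in dividing cells, have 4 and 5. All 3 have near-identical copies in the genome whose probes may overlap, so their values are less certain. The unused Ube2s probe set was at 7.50 and 8.77 against 6.06 and 6.96. Its plain difference of means was 1.62, against 2.23 for the one used. An unused Hmgn2 probe set overlapped between the groups, with a plain difference of 0.248. The unused Hmgb2 probe sets had 1.57 to 1.73.

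Promoters of 4 genes that were higher are printed as examples with and without a motif match, and do not stand for the called group. They are the 150 bases before the transcription start, 5′ to 3′ on the gene's strand, from RefSeq on GRCm38.p6, with matches to the motifs searched in capitals. Ube2c (chr2:164769779-164769928, plus strand) has a CHR match, which reads TTTGAA on the opposite strand, and Cks1b (chr3:89418292-89418441, minus strand), chosen after its values were seen, has 2. Chaf1a (chr17:56040266-56040415, plus strand) has an E2F match, and Plk1 (chr7:122159285-122159434, plus strand) has no match of either kind.
Ube2c: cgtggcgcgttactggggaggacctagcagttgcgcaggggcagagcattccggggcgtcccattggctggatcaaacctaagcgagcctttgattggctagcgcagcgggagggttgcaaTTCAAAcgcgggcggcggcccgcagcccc
Cks1b: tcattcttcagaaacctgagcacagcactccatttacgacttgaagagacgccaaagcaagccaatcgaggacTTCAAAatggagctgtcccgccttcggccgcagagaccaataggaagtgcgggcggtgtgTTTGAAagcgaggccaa
Chaf1a: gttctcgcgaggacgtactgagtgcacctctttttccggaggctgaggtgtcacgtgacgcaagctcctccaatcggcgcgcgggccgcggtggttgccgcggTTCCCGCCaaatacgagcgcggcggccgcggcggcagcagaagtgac
Plk1: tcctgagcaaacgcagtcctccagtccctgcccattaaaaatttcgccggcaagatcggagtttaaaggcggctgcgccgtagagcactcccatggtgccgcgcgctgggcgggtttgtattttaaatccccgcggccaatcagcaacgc

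In Ube2c the match spans bases 29 to 24 before the start, in Cks1b bases 77 to 72 and 17 to 12, and in Chaf1a bases 47 to 40. Over the 250 bases before the start, searched on both strands, TTTGAA was present in 9 of the 29 called higher genes that had a promoter in the table (31%), in 14 of 39 G2/M genes (35.9%) and in 16.3% of all 27025 genes with a promoter there. Any of the E2F motifs TTCCCGCC, TTTGGCGC and TTTCGCGC was present in 7 of 29 E2F targets (24.1%), in 2 of 29 called higher genes (6.9%) and in 2.52% of all. A match describes the letters in the window and does not show that a factor binds there.

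Genes of DNA replication had smaller differences of the same sign. Of 35 tested E2F targets of DNA replication, 1 was higher and none lower, and the median difference was 1.08 (23 higher and none lower at an unadjusted p under 0.05). Positive differences were found for 32 of the 35, and in 24 both knockout arrays lay above both heterozygous arrays, against 18.8% of all genes. The called member, Chaf1a, is the large subunit of the factor that loads histones behind the replication fork. It was at 7.75 and 8.04 in the knockout arrays and at 5.66 and 5.64 in the heterozygous arrays. Both groups were tight, the heterozygous arrays at a level near that of the dimmest genes. The difference was 2.39 ± 0.34 (adjusted p = 0.0142), with 2.53 without knockout array 1 and 2.24 without array 2. It was 2.82 with an offset of 1 and 1.80 with an offset of 50. Dnmt1, which copies DNA methylation to the new strand, was at 10.21 and 9.65 against 8.63 and 8.57 (1.36 ± 0.27, adjusted p = 0.0565). Gins2, of the replicative helicase, differed by 1.40 (adjusted p = 0.0862), Clspn, claspin, by 1.65 (adjusted p = 0.118) and Pcna, the sliding clamp, by 0.92. Mcm2, a helicase subunit, had 0.31, Fen1, the flap endonuclease, -0.05 and Ung, uracil DNA glycosylase, -0.30. The list median was 0.62 without knockout array 1 and 1.57 without array 2, where 7 members passed, among them Clspn (adjusted p = 0.00411), Dnmt1 (adjusted p = 0.0192) and Gins2 (adjusted p = 0.0279). No member passed without either heterozygous array. Well-known targets such as Cdc6 and Mcm5 were too dim for the filter, together with 6 others.

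No gene of the RB and E2F system itself passed. Of 25 tested members limma called none (3 higher and none lower at an unadjusted p under 0.05), with 15 positive and 10 negative differences and a median of 0.019. The median was 0.228 without knockout array 2, where 1 member passed, and -0.052 without array 1. Cdk2, the kinase of the start of S phase, had the smallest p of them, at 7.66 and 7.09 in the knockout arrays and 5.96 and 5.38 in the heterozygous arrays. The groups did not overlap, and the difference was 1.66 ± 0.38 (adjusted p = 0.110). E2f7, a repressor E2F, differed by 1.16 (adjusted p = 0.255), Rbl1, which encodes the related pocket protein p107, by 0.88 (adjusted p = 0.446), and Cdk6 by -0.75 (adjusted p = 0.576). Rbl2, which encodes the third pocket protein p130, had -0.46, Ccnd1 (cyclin D1) -0.08 and E2f4 0.019. E2f1, the activator most often named with RB, was too dim for the filter, at 5.86 and 5.12 against 4.04 and 4.83. Ccne1 (cyclin E1), at 6.67 and 5.64 against 5.23 and 5.07, was likewise too dim. Replication-dependent histone genes had 15 of 18 positive differences and a median of 0.38, with none called by limma and 4 higher at an unadjusted p under 0.05.

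Targets of p53 gave no call and a median near 0. None of 33 passed in limma, with 1 higher and none lower at an unadjusted p under 0.05, 17 differences were positive and 16 negative, and the median was 0.021, or -0.142 without knockout array 1. The list mean was 8.12 and 8.05 in the knockout arrays, 8.02 and 7.78 in the heterozygous arrays and 7.18 and 7.27 in the untreated arrays, so that all 4 DEN livers lay above both untreated ones. Ccng1 (cyclin G1) had a difference of -0.04, Mdm2 (the ubiquitin ligase of p53) of -0.18 and Phlda3 of -0.28. Btg2, an antiproliferative gene, had the smallest p in the list. It was at 9.12 and 10.43 in the knockout arrays and 8.08 and 7.79 in the heterozygous arrays (1.79 ± 0.50, adjusted p = 0.211). Of 31 genes of DNA repair and checkpoints, Chek1 passed and 30 did not, and the median was 0.25. Chek1, the checkpoint kinase of S and G2 phase, was at 8.20 and 7.17 against 5.62 and 5.84 (1.99 ± 0.38, adjusted p = 0.047), with 1.48 (adjusted p = 0.124) without knockout array 1 and 2.51 without array 2. Brca1, which acts in homologous recombination, differed by 1.47 (adjusted p = 0.255).

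On the lower side, drug- and steroid-metabolising enzymes were the main group. Of 54 tested cytochromes P450 and conjugating enzymes, 4 were lower and none higher, 50 stayed short of the threshold, and the median difference was -0.50. Negative differences were found for 46 of the 54, and in 27 both knockout arrays lay below both heterozygous arrays, against 14.1% of all genes. Sult1e1, estrogen sulfotransferase, had the largest difference of any called gene. It was at 4.95 and 7.37 in the knockout arrays and at 9.84 and 10.22 in the heterozygous arrays. The knockout arrays were far apart and both below the heterozygous arrays, with a difference of -3.84 ± 0.60 (adjusted p = 0.020), or -2.63 without knockout array 1 and -5.06 without array 2. Cyp2c38 was at 7.09 and 6.88 against 9.45 and 9.50, with both groups tight (-2.49 ± 0.31, adjusted p = 0.00689). Ugt2b1, a glucuronosyltransferase, was at 9.71 and 9.15 against 11.36 and 10.44 (-1.89 ± 0.29, adjusted p = 0.0184). Cyp1a1, the inducible target of the aryl hydrocarbon receptor, was at 6.12 and 6.23 against 7.72 and 8.00 (-1.73 ± 0.30, adjusted p = 0.0401).

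Cyp2e1, the P450 best known for activating DEN, had a difference of -0.47 and did not pass. Members of the list with positive differences included Cyp2b10 (1.21) and Cyp4a14 (0.99), neither of which passed. Called enzymes outside the list were Akr1c19, an aldo-keto reductase, at 5.92 and 6.85 against 9.48 and 9.70 (-2.97 ± 0.53, adjusted p = 0.0419; -2.51 and adjusted p = 0.101 without knockout array 1), Cyp2d13 (-1.86) and Cyp3a57 (-1.51). No member of the list passed without either heterozygous array or within batch 1 alone, where the median was -0.63, and 4 passed without either knockout array. Several of these genes belong to families of close copies in tandem, such as Cyp2c and Ugt2b, whose probes may share sequence.

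NRF2 targets and glutathione enzymes, which detoxify electrophiles, had negative differences in 29 of 32 tested members. In 19 of them both knockout arrays lay below both heterozygous arrays, against 14.1% of all genes, and in none above, against 18.8%. The median was -0.83. At the adjusted threshold 1 was lower and 31 did not pass, and 18 were lower at an unadjusted p under 0.05. Gstm1, a glutathione S-transferase, was at 11.43 and 11.81 in the knockout arrays and 12.76 and 12.80 in the heterozygous arrays (-1.32 ± 0.25, adjusted p = 0.047). It passed in 5 of 29 settings and did not without knockout array 1 (-1.13, adjusted p = 0.108) or either heterozygous array. Nqo1, the quinone reductase that marks NRF2 activity, was at 6.94 and 6.72 against 9.17 and 7.46, with a wide gap between the heterozygous arrays (-2.07 ± 0.44, adjusted p = 0.0798). Aox1, aldehyde oxidase, was at 8.01 and 7.53 against 9.50 and 9.37 (-1.76 ± 0.36, adjusted p = 0.0682). Srxn1 (sulfiredoxin) had -1.36, Gclm (the regulatory subunit of glutathione synthesis) -1.27 and Hmox1 (heme oxygenase) -0.24. Unlike the mitotic list, the median moved little when a knockout array was left out, to -0.80 without array 1 and -0.74 without array 2. The antioxidant response element core TGACNNNGC was present in 6 of 26 promoters of the list (23.1%) and in 10.1% of all. The same core was in 7 of 39 G2/M genes (17.9%), in 4 of 29 called higher genes (13.8%) and in 0 of 10 called lower genes.

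**Figure D2:**
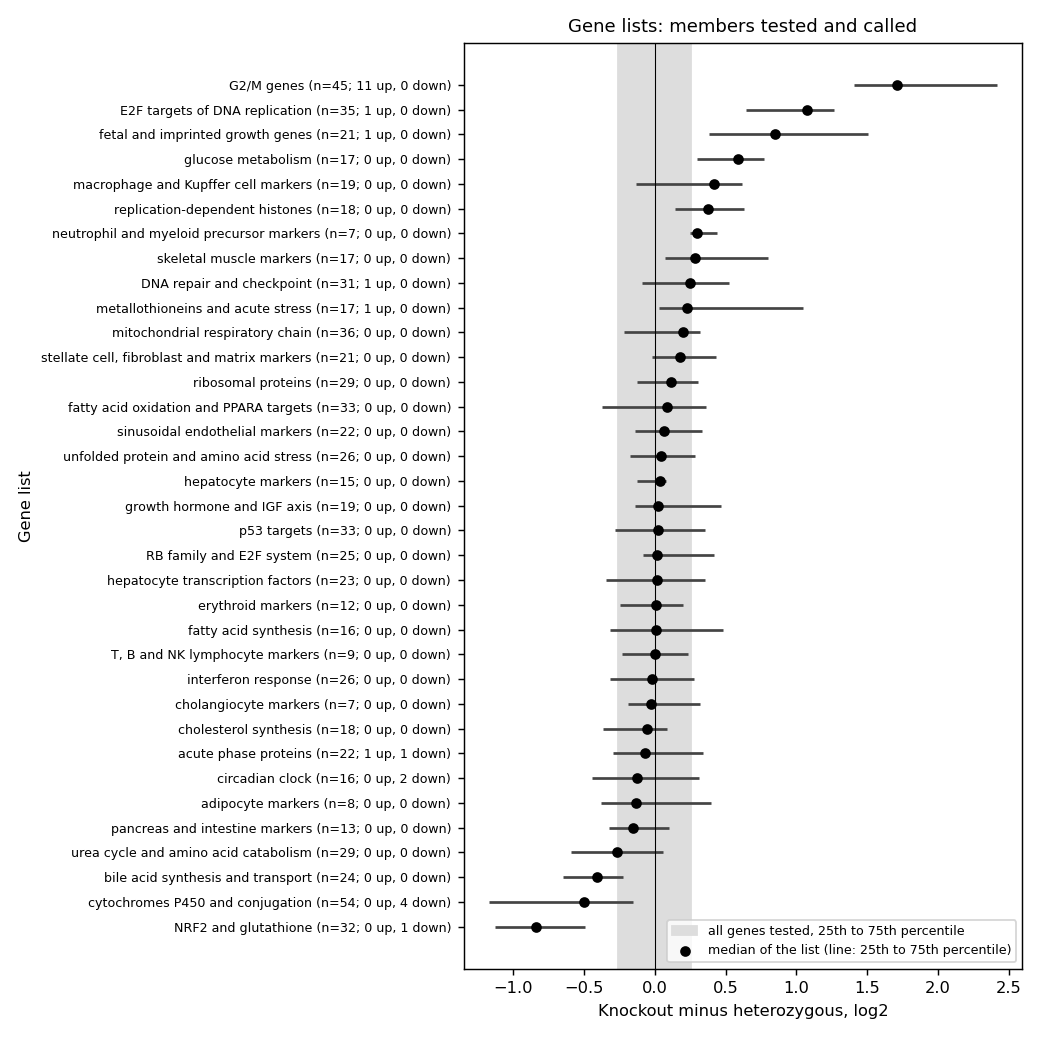
Median difference, knockout minus heterozygous on the log2 scale, of 35 gene lists (points) with their interquartile range (lines), beside the same range over all genes tested (grey band), and the members tested and called in each label. G2/M genes lie farthest to the right at 1.71, followed by E2F targets at 1.08 and fetal and imprinted genes at 0.85, and NRF2 and glutathione genes lie farthest to the left at -0.83.

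Fetal and imprinted growth genes had positive differences in 19 of 21 tested members, with a median of 0.85. Among them 1 was higher and 20 did not pass. The called gene, Gpc3, is a glypican of fetal liver and hepatocellular carcinoma, and was at 8.44 and 8.40 in the knockout arrays and 6.49 and 6.67 in the heterozygous arrays (1.82 ± 0.33, adjusted p = 0.0419). Arrays of each group lay close together, yet the adjusted p was 0.0795 without knockout array 1 and 0.0646 without array 2. Igf2, the fetal insulin-like growth factor, was at 11.41 and 9.85 against 7.75 and 8.89 (2.64 ± 0.52, adjusted p = 0.0539), and passed without knockout array 2 (3.42, adjusted p = 0.00497). Afp, alpha-fetoprotein, had 2.48 and Peg3, an imprinted gene, 1.03, without passing, whereas Dlk1 had 0.18 and Meg3 0.026. Tceal9, outside the list, was at 10.12 and 10.13 against 8.33 and 9.38 (1.68 ± 0.26, adjusted p = 0.0184), the knockout arrays being alike.

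Some stress, clock and secretory genes were among the 45. Mt2, a metallothionein that binds zinc and copper, was at 11.62 and 11.80 against 10.34 and 10.30 (1.71 ± 0.29, adjusted p = 0.0363), and its neighbour in function Mt1 had 1.49 (adjusted p = 0.115). Orm1, the acute phase protein orosomucoid, was at 4.68 and 5.87 against 8.66 and 8.89, with no overlap (-3.19 ± 0.42, adjusted p = 0.00723). It had -2.60 without knockout array 1 and -3.78 without array 2. Of 22 tested acute phase genes 12 had negative and 10 positive differences, with a median of -0.07, or 0.151 without knockout array 2. Orm2, a close relative of Orm1 that was too dim for the filter, was at 5.52 and 6.13 against 6.61 and 6.45, and Fga (a fibrinogen chain) had a difference of 1.11. Per3 and Nr1d2, of the circadian clock, were lower by 1.67 ± 0.28 and 1.42 ± 0.27 (adjusted p = 0.0363 and 0.0472), and in both the knockout arrays lay below the heterozygous arrays. Nr1d1, the partner of Nr1d2 as a repressor of Arntl, had -1.27 (adjusted p = 0.115), while Arntl itself had 1.35 (adjusted p = 0.173). The clock list had a median of -0.12, or 0.158 without knockout array 1. The hour at which the livers were taken is not in the labels, and its part in these values was not tested. Dazap2 (-1.57), Dpysl2 (2.06), Aspn (2.04), Sox12 (1.97), Zdhhc2 (1.88), Med4 (1.69), Cntln (1.65), Sgce (1.43), Ccdc18 (2.07) and Ppp1r10 (1.26) complete the 45. A further probe set of Med4 went the opposite way.

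Metabolic functions of the hepatocyte other than detoxification gave no calls in limma. At an unadjusted limma p under 0.05 there were 4 higher and 1 lower of 17 genes of glucose metabolism and 1 and 4 of 24 bile acid genes. The counts were 0 and 5 of 29 urea cycle and amino acid genes, 4 and 1 of 33 for fatty acid oxidation and 0 and 1 of 18 for cholesterol synthesis. Over all 14953 genes tested they were 827 and 612. Glucose metabolism had 14 of 17 positive differences and a median of 0.59, with Pdk4, which inhibits pyruvate dehydrogenase, at 1.42 and G6pc, glucose-6-phosphatase, at 1.26. Bile acid genes had 20 of 24 negative differences and a median of -0.41, with Cyp7a1, the rate-limiting enzyme of bile acid synthesis, at -1.40. Urea cycle and amino acid genes had a median of -0.27, fatty acid oxidation 0.085, cholesterol synthesis -0.06 and hepatocyte transcription factors 0.018. In bulk tissue fewer cells of a type and less RNA per cell cannot be told apart, and this holds for every list here.

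Hepatocyte markers differed little, with a median of 0.040 over 15 genes and summed intensities of 67902 to 73953 in the knockout arrays and 60656 to 71294 in the heterozygous arrays. Summed macrophage and Kupffer cell markers were 6257 and 7195 against 3987 and 5120, and 4171 and 3756 in wild type DEN arrays 3 and 4. The 2 compared groups did not overlap, as was the case for 32.9% of single genes. Of 19 differences 13 were positive, with a median of 0.42 and none called by limma (4 higher at an unadjusted p under 0.05). Marco had 0.82, Clec4f 0.80, Lyz2 0.42 and Csf1r 0.40, but Vsig4 -0.12. The 6 negative differences of the list, Vsig4 included, reached down to -0.69. Stellate cell and matrix markers summed to 15454 and 15614 against 10032 and 12915, endothelial markers to 4654 and 5031 against 3301 and 4451, and erythroid markers to 3910 and 4356 against 2587 and 3750. These sums carry no batch term. Each lower heterozygous sum was that of array 4, and wild type array 4, also in batch 2, had 10141, 3598 and 1895. With batch in the model the list medians were 0.18, 0.067 and 0.010, with 14 of 21, 11 of 22 and 6 of 12 differences positive. Tfrc, the brightest erythroid marker, was at 11.31 and 11.53 against 11.18 and 10.44 in heterozygous arrays 3 and 4. Neutrophil markers summed to 689 and 743 against 592 and 643, with 7 of 7 tested differences positive and none called by limma, also at an unadjusted p under 0.05. Cholangiocyte markers, at 862 and 1136 against 902 and 954, and lymphocyte markers, at 1355 and 1411 against 1162 and 1442, overlapped. Array intensities have no true zero, so no marker could be called absent. The part of these cell types in the mitotic and metabolic differences was not tested.

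The knockout-labelled livers differed from each other in mitotic genes as well as in muscle genes. Over all 14953 genes tested, knockout array 1 was above array 2 in 7287, with a median of 0.016 for array 2 minus array 1. Array 1 was the higher in 44 of 45 G2/M genes, with a median of -1.52, and in 31 of 35 E2F targets, with -0.92. The heterozygous arrays had medians of -0.15 and -0.02 for array 4 minus array 3 in the same lists. Array 1 was also the higher in 24 of the 33 called higher genes, and array 2 was nearer to the heterozygous arrays than array 1 was in 32 of the 45. Mean levels of cytochromes P450 were 8.94 and 9.33 in the knockout arrays, against 9.96 and 9.62, and those of NRF2 genes 8.72 and 8.70, against 9.51 and 9.33. The order of the knockout arrays in mitosis was thus not found for NRF2 genes. Muscle markers had the opposite order, with a list mean of 8.03 in array 2 and 6.48 in array 1.

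**Figure D3:**
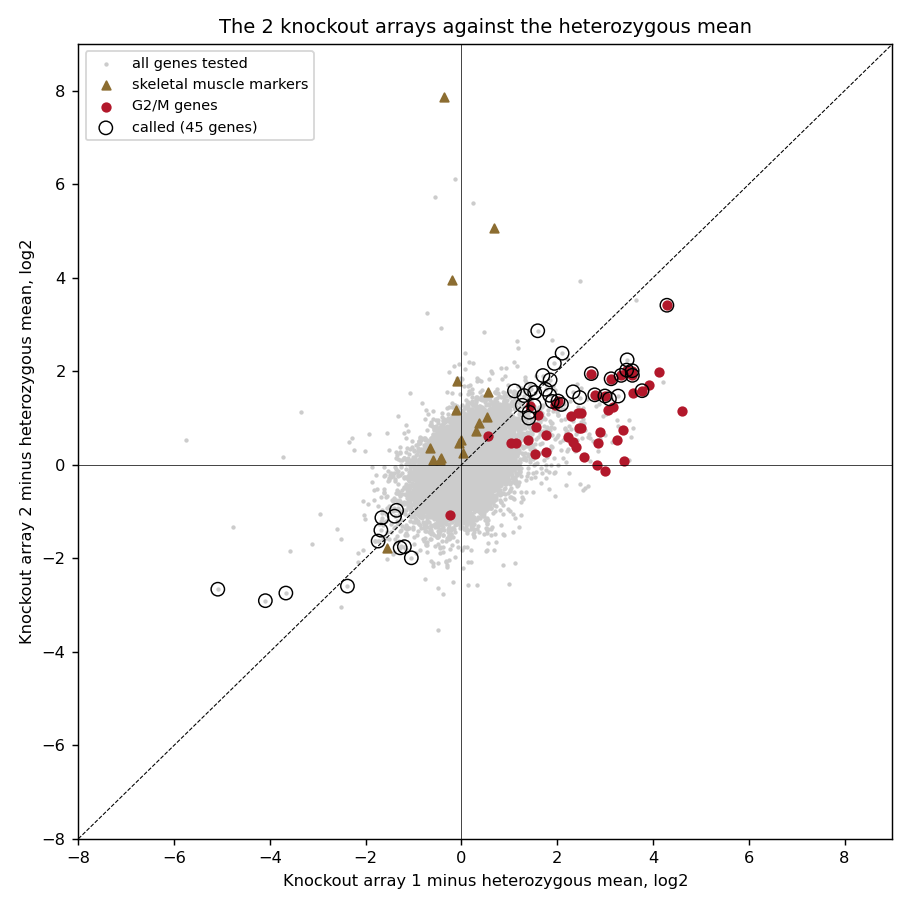
Difference of knockout array 1 (horizontal) and knockout array 2 (vertical) from the mean of the heterozygous arrays, on the log2 scale, for 14953 genes (grey), with G2/M genes in red, skeletal muscle markers as triangles and the 45 called genes circled. All but 1 of the 45 red points lie below the dashed line of equality, where array 1 is the higher, and several muscle markers stand high on the vertical axis, in array 2 alone.

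Wild type livers after DEN, which have no Cre and are both female, give a scale for the 2 genotypes. These comparisons share arrays with the one above, so the values are set side by side only. Knockout minus wild type had 7 genes higher and none lower in limma (0.0468%), with 754 and 524 at an unadjusted p under 0.05. The 7 were Akr1c18, Bex3, Btg1, Ccnb2, Cenpf, Pttg1 and Tceal9. Heterozygous minus wild type had 1 gene higher, Akr1c18, and none lower (0.00669%), with 547 and 482 at an unadjusted p under 0.05. For Cyp2c38 the level was 8.29 and 8.04 in wild type, between knockout at 7.09 and 6.88 and heterozygous at 9.45 and 9.50, with differences from wild type of -1.18 for knockout and 1.31 for heterozygous. Ube2c was at 7.49 and 7.56 in wild type, with differences of 1.84 and -1.75. Cyp1a1 was at 6.01 and 6.28, with -0.02 for knockout and 1.71 for heterozygous, so its difference lay on the heterozygous side. Cenpf, at 6.33 and 5.15, had 3.11 for knockout and 0.29 for heterozygous and lay on the knockout side. List medians against wild type were 1.48 for knockout and -0.33 for heterozygous in G2/M genes, 0.82 and -0.15 in E2F targets, -0.44 and 0.34 in NRF2 genes, and 0.68 and 0.071 in fetal and imprinted genes.

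Untreated livers of floxed mice without Cre had mitotic and P450 levels between those of the knockout arrays. From the Y-linked genes untreated array 1 read as male (8.905) and untreated array 2 as female (4.436). The G2/M mean was 7.43 and 7.25 there, between knockout array 2 at 6.99 and array 1 at 8.59, and the P450 mean was 9.11 and 9.10, between 8.94 and 9.33. Ube2c was at 9.27 and 9.11, Plk1 at 8.74 and 8.38, Sult1e1 at 4.43 and 4.77, Orm1 at 4.97 and 5.86 and Igf2 at 12.49 and 12.71 in the untreated livers. Fetal and imprinted genes averaged 8.66 and 8.27, with 8.41 and 8.18 in the knockout and 7.37 and 7.53 in the heterozygous arrays. For NRF2 genes, at 8.62 and 8.47, and for p53 targets, as given above, both untreated livers lay below both genotypes. No untreated mouse of either genotype was measured, so a difference present before DEN and a different response to DEN cannot be told apart. In the 5 N750F livers the G2/M mean was 8.07 to 8.42 and the NRF2 mean 8.49 to 9.05. Of these livers that of array 1 read as male (Y-linked mean 9.288) and the rest as female (4.436 to 4.574).

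**Figure D4:**
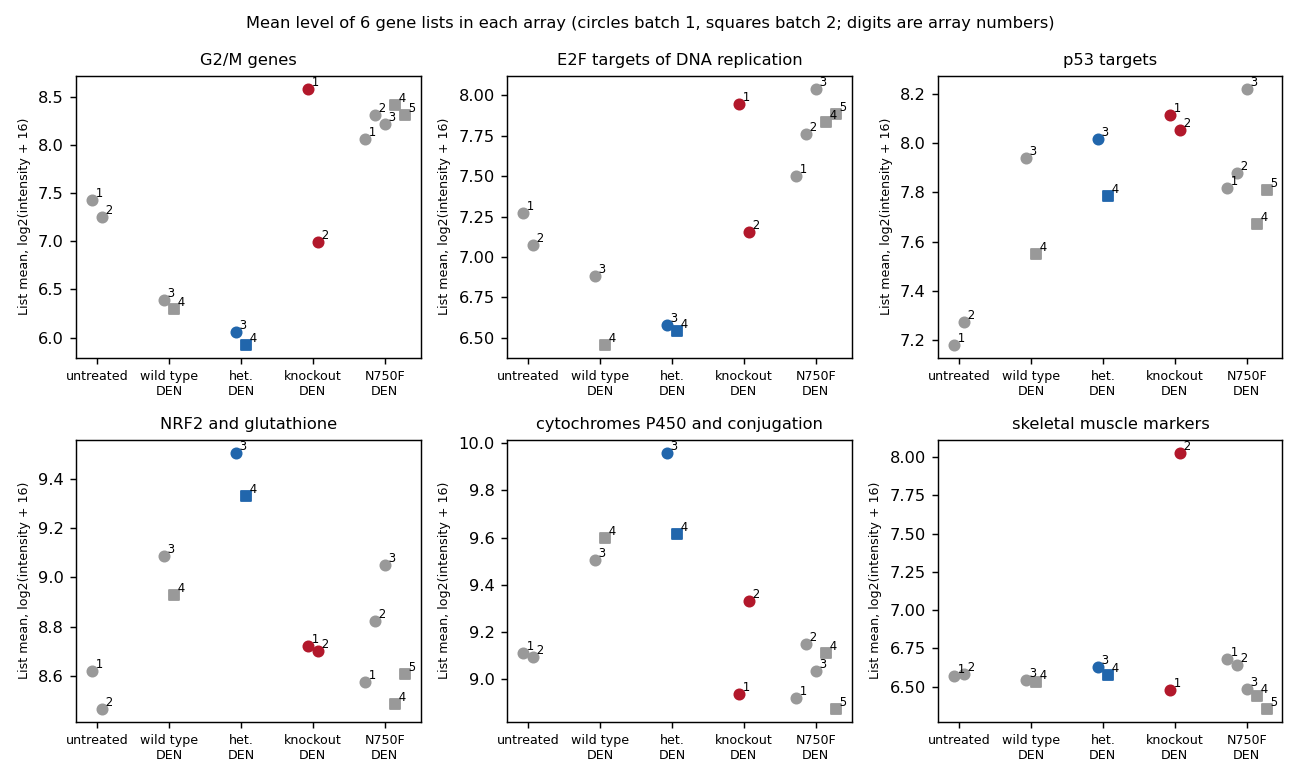
Mean level of 6 gene lists, as log2 of intensity plus 16, with 1 point per array, grouped by genotype and treatment (knockout red, heterozygous blue, others grey; circles batch 1, squares batch 2). For G2/M genes knockout array 2 at 6.99 lies below the untreated arrays and knockout array 1 at 8.59 above them, and for p53 targets every DEN array lies above the untreated arrays at 7.18 and 7.27.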

How the data were processed

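Liver RNA was amplified with the WT-Ovation Pico kit and measured on 13 Affymetrix arrays of 1 colour, per the labels' protocols. For each array the authors deposited the linear intensity of 35556 probe sets. RMA and Affymetrix Expression Console 1.1 are named, without a role, in the submitters' processing notes, and a genome build for the probe sets is not given in the sources used here. With limma 3.58.1 (R 4.3.3), all 13 arrays were quantile-normalized together. An offset of 16 was added before log2, so changes of dim genes are understated. GEO's annotation named 21789 probe sets with 1 symbol (1621 had several, 12146 were not listed), and symbols were updated through Entrez IDs for 21698. The brightest probe set stood for each of 19938 genes. A filter removed genes whose mean was under the 25th percentile and kept 14953. A limma fit (lmFit, eBayes) held 5 groups and array batch, taken from the run in the raw array names, with 7 residual degrees of freedom and Benjamini-Hochberg adjustment over all genes tested. Every adjusted p is from limma.

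The members and gene lists were chosen with earlier results of these data known, and lists are described by counts and medians, with no test. Of 1055 list entries 120 had no probe set with a single symbol, 137 were too dim and 32 were matched through an older symbol. Named genes were Rb1, the 12 called genes of largest difference per direction and up to 4 members of smallest p from lists with a call and from the RB, E2F, G2/M, p53, NRF2 and P450 lists. Other names, such as the remaining called genes, muscle and marker genes and further list members, were chosen after their values were seen. No 2 arrays held identical values. Promoters came from RefSeq (GRCm38.p6), 250 bases before the start being searched. The alternatives tried were other scaling, offsets, filters, batch treatments, sample sets, variance settings, a Y-linked covariate and leaving out each array.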

Additional observations from a re-analysis of the deposited data

How the results depend on the processing

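The 45 genes kept their direction in every setting that gave them a value. This was close to given, as they were called on these same arrays with no overlap between the groups. In settings with 2 knockout and 2 heterozygous arrays their unadjusted limma p stayed under 0.05, except with no batch term (44 of 45). The number past the adjusted threshold moved. It was 15 with arrays scaled to the same median (12 higher, 3 lower), 14 with no scaling between arrays (9 and 5), an alternative chosen after seeing the data, 15 with an offset of 1 (13 and 2) and 48 with an offset of 50 (29 and 19). It was 23 with no batch term, 1 in batch 1 alone, 33 with batch as a random block, 20 on the 11 DEN arrays, and 3 or 2 on the 4 compared arrays without or with batch. It was 25 with array weights, 19 with a covariate for the Y-linked level, 64 with an intensity trend and robust prior, 32 with no filter on dim genes, 45 with a filter at the 50th percentile and 41 with the mean of all probe sets. Leaving out 1 array at a time gave 2 to 135 genes, and for Rb1 -1.28 to 0.070, the value without knockout array 2 being the reversed one. The causes were not tested. No paired analysis was possible because the knockout arrays are numbered 1 and 2 and the heterozygous arrays 3 and 4. With 2 arrays per group, a gene that did not pass is not shown to be equal, and levels near those of the dimmest genes depend on the offset.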
